A study of Mus musculus with 8 samples.

Results

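The genes described here are nuclear receptors and their coregulators, taken by gene symbol from a list of 42. Of these, 41 were found among the 15358 genes of the deposited count table, and Pgr, the progesterone receptor, was not analysed here. All 41 passed the filter on low counts, which kept 14887 genes in all. Nuclear receptors are transcription factors that bind DNA directly. In many of them a small lipophilic ligand, such as a steroid, thyroid hormone, retinoic acid or a fatty acid, sets whether corepressors or coactivators are bound. In the embryonic ventricle the family is known for retinoic acid control of growth of the compact wall, for the fatty acid programme run by PPAR and ERR receptors with their coactivator Ppargc1a, and for the thyroid and corticosteroid signals that mature the muscle around birth.

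Mouse embryos were taken at day 14.5 of development and RNA was made from the whole ventricle of the heart, which also holds cells without muscle identity; the question was which transcripts differ once Lem2, an inner nuclear membrane protein with the gene symbol Lemd2, is targeted in the heart. Control embryos carried the floxed Lem2 alleles (Lem2 f/f) alone, as littermates. Conditional knockout embryos (cKO, labelled XMLC2V; Lem2 f/f) carried the same floxed alleles and in addition a Cre transgene named XMLC2V-Cre, and the labels do not say which promoter or cells that name stands for. Libraries of 3 control and 4 cKO ventricles were compared.

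Library totals ran from 28921922 to 39351262 counts. Lemd2 lay at 34.4 to 36.8 CPM (estimated counts scaled to a fixed library size after TMM normalization) in control and at 13.7 to 18.5 CPM in cKO ventricle. All 3 controls and cKO replicates 1 and 2 expressed Y-linked genes, while cKO replicates 3 and 4 expressed Xist, so sex differed between the groups. Control replicate 3 and cKO replicate 4 have titles with the code F191 and the other 5 libraries the code F169, which the labels do not explain. Heart muscle markers were present throughout, with 8 genes summing to 38636 to 41222 CPM in control and 34977 to 40861 CPM in cKO libraries. These sums overlapped between the groups, while 2 of the 8 genes had a higher mean in cKO and 6 a lower one. In whole tissue, fewer cells of a type and less RNA per cell cannot be told apart. The labels name no litters, and the spread that the p-values rest on is that between these libraries and may in part be technical.

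Of the 41 genes, 1 was lower and 0 were higher in cKO ventricle by the quasi-likelihood test of edgeR, at a p under 0.05 after Benjamini-Hochberg adjustment across the 14887 genes tested. The same rule called 1.09% of all genes, 0.322% lower and 0.766% higher. The gene called was Nr3c2. DESeq2 called 2 lower, Nr3c2 and Nr2c2, and 0 higher, against 1.63% and 2.6% of all genes. It gave Esr2 no adjusted p. At an unadjusted p under 0.05, 10 of the 41 were lower and 1 was higher, against 8.5% and 9.4% of all genes. In 5 genes, Nr3c2, Nr2c2, Rorb, Nr1h2 and Ncoa2, each cKO library lay below each control, and in 0 genes above, where 8.28% and 8.67% of all genes did so. The log2 fold change (cKO over control) was negative in 27 genes and positive in 14, with a median of -0.0832 beside -0.006 for all genes tested. That median was -0.0342 without control replicate 3 and -0.039 within F169.

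**Figure D1:**
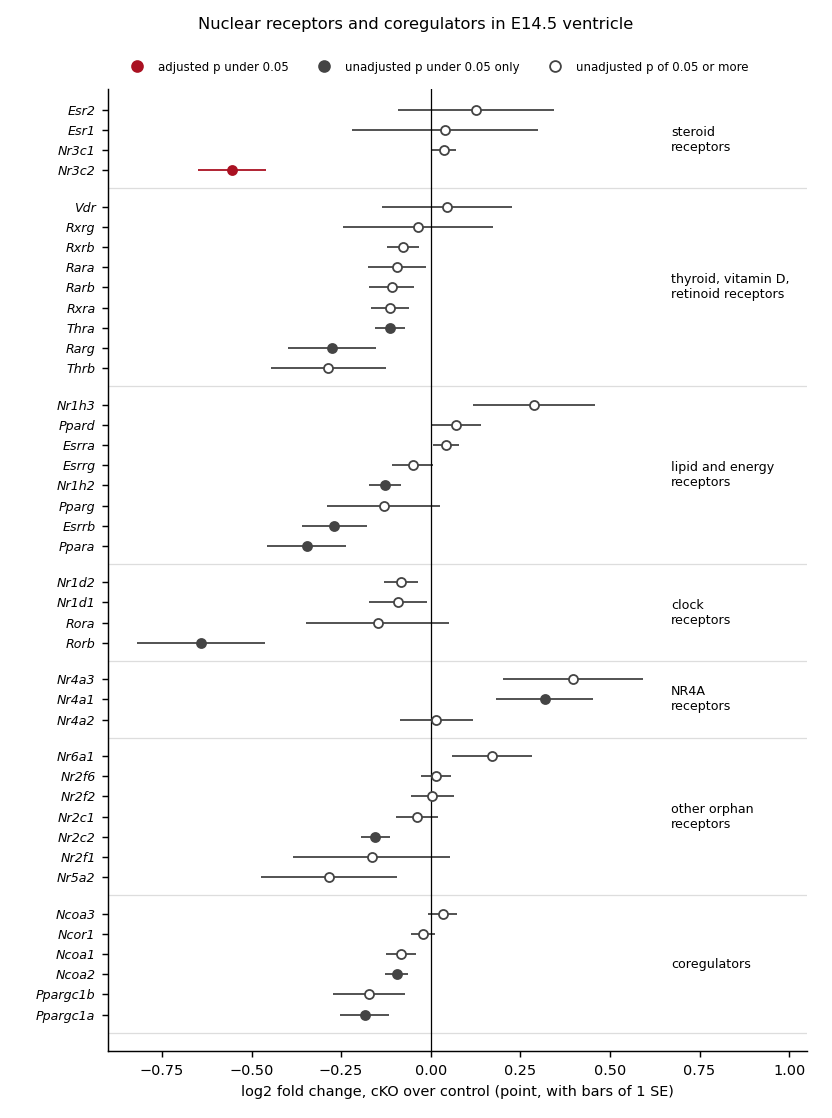
Log2 fold change of each of the 41 genes, cKO over control, on the horizontal axis, with bars of 1 SE from edgeR, grouped by role. Nr3c2, filled red at -0.55, is the gene with an adjusted p under 0.05, and the 10 dark grey points have an unadjusted p under 0.05 only.

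The promoters of 36 of the 41 genes were found in a RefSeq table of sequences from 250 bases before to 50 after each transcription start (build GRCm38.p6, the build also called mm10). The promoters of 3 genes are shown, chosen after the values were seen: those of Nr3c2 and Rorb, with the lowest log2 fold changes, and that of Nr4a1, the gene higher at an unadjusted p under 0.05. Capitals mark the motif CCAAT, and the GC box with the letters GGGCGG, in Nr3c2 (chr8:76902080-76902379, plus strand) and Rorb (chr19:19111147-19111446, minus strand). In Nr4a1 (chr15:101266596-101266895, plus strand) they mark TGCGTCA, a variant of the CRE that CREB and AP-1 factors bind. Both strands were searched, and matches on the other strand are capitalised as they read on the strand shown.
Nr3c2: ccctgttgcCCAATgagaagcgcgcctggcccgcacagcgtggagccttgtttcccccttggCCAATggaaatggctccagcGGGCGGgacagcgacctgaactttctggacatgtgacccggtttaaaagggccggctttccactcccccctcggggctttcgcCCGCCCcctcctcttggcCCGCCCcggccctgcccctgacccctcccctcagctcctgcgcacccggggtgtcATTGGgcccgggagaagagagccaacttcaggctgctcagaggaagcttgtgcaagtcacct
Rorb: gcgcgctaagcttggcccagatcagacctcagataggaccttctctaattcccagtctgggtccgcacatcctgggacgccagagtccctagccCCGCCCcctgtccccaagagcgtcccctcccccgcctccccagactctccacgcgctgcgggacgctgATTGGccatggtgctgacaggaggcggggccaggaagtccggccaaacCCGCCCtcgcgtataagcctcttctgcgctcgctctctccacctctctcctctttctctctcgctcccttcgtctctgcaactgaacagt
Nr4a1: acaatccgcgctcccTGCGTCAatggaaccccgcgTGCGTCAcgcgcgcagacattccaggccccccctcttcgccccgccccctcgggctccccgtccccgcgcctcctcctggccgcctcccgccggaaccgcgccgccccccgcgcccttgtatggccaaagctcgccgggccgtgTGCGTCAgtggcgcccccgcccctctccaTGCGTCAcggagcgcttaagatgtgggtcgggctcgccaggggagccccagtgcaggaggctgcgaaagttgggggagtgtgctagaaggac

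The Nr3c2 window held 3 CCAAT and 3 GGGCGG matches, and the Rorb window 1 and 2. A further Rorb promoter in the table (chr19:19001068-19001367, minus strand) held 0 of either, and the Nr4a1 window held 3 GGGCGG matches, left in lower case. Of all 32851 promoters in the table, 37.4% held CCAAT and 35.7% held GGGCGG, so these letters are common. The Nr4a1 window held TGCGTCA 4 times, a motif found in 2.12% of all promoters and in 1 of the 57 promoters of the genes described here. The hexamer AGGTCA, the element that most non-steroid receptors bind, was in none of the windows shown, against 10 of 57 promoters of these genes (17.5%) and 16.3% of all promoters. The full CRE, TGACGTCA, was in none of them either, against 1.79% of all promoters. A match describes the letters and does not show a bound site.

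Among steroid receptors the mineralocorticoid receptor gene Nr3c2 was lower in cKO ventricle, while the glucocorticoid receptor gene Nr3c1 showed no such difference. Nr3c2 (mm10 chromosome 8, 76902508 to 77243640, plus strand) encodes the receptor for aldosterone, which in heart muscle is also occupied by glucocorticoids. It lay at 8.04, 8.49 and 7.28 CPM in control replicates 1 to 3, and at 5.81, 5.41, 4.85 and 5.54 CPM in cKO replicates 1 to 4. The groups did not overlap, and these levels rest on 140 to 338 counts per library. The mean went from 7.93 ± 0.613 to 5.40 ± 0.407 CPM (SD, 3 and 4 libraries), a ratio of 0.681. The log2 fold change of Nr3c2 was -0.55 (SE 0.094, adjusted p = 0.0322 by edgeR and 0.000953 by DESeq2, both Benjamini-Hochberg adjusted).

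The size of the Nr3c2 difference held under all 17 alternatives, from -0.6235 to -0.5021 on the log2 scale, but the call did not. By edgeR the adjusted p was 0.0975, 0.115 and 0.0641 without control replicate 1, 2 or 3, and 0.103, 0.0842 and 0.0612 without cKO replicate 2, 3 or 4. Without cKO replicate 1 the call was kept (adjusted p = 0.0436, edgeR). Within F169 the log2 fold change was -0.62 (adjusted p = 0.11 by edgeR), and without the Xist-expressing libraries it was -0.50 (adjusted p = 0.194 by edgeR). With 1 library of each group, F191 alone cannot be tested.

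**Figure D2:**
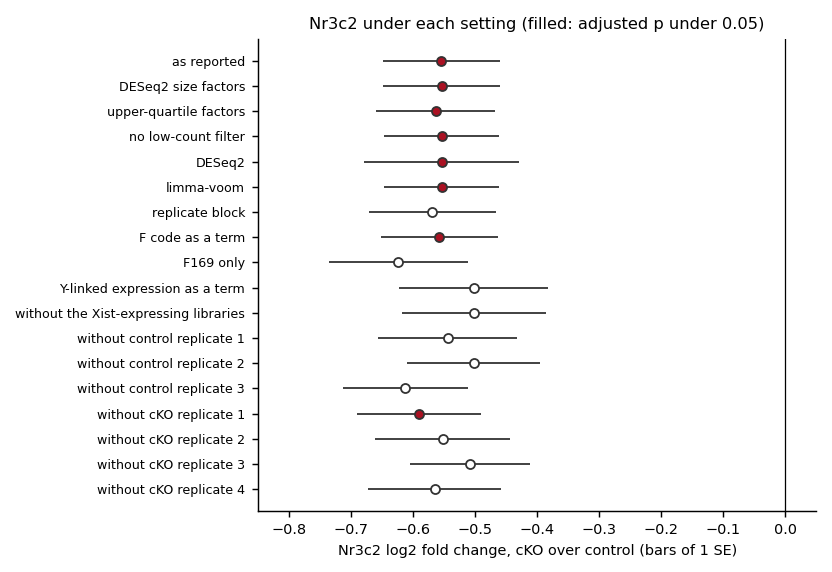
Log2 fold change of Nr3c2, cKO over control, with bars of 1 SE, as reported and under each of 17 alternatives. All values lie between -0.6235 and -0.5021, and filled points have an adjusted p under 0.05.

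Nr3c1, the receptor that glucocorticoids activate, lay at 102, 98.7 and 104 CPM in control and at 104, 108, 103 and 102 CPM in cKO replicates 1 to 4. The groups overlapped, with a log2 fold change of 0.04 (SE 0.035, adjusted p = 0.628 by edgeR). The log2 ratio of Nr3c2 to Nr3c1 was -3.67 ± 0.151 in control and -4.26 ± 0.109 in cKO libraries (SD), a difference of -0.59. Each cKO library had a lower ratio than each control. By an exact permutation test, two-sided, p was 0.0286, which no arrangement of the 35 can undercut, and 0.229 after Benjamini-Hochberg adjustment over the 8 pairs compared. The oestrogen receptor genes Esr1 (1.32 ± 0.287 and 1.37 ± 0.408 CPM) and Esr2 (0.575 ± 0.122 and 0.632 ± 0.0372 CPM) were at low levels, with log2 fold changes of 0.04 (SE 0.26) and 0.13 (SE 0.22).

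Of 15 tested genes for corticosteroid conversion or known to be induced through these receptors, 0 were called in either direction by edgeR or DESeq2. DESeq2 gave the conversion genes Hsd11b1 and Hsd11b2 no adjusted p, so it could not call them. The median of the list was 0.0216, and 1 gene was higher and 2 were lower at an unadjusted p under 0.05. Those 3 were Pdk4, a pyruvate dehydrogenase kinase (-0.12, SE 0.043), Tsc22d3, the glucocorticoid-induced leucine zipper protein GILZ (0.17, SE 0.064), and the Krüppel-like factor Klf9 (-0.31, SE 0.12). The chaperones that hold unliganded steroid receptors contained 1 called rise among 11 genes and 0 falls. Hsp90aa1, the inducible cytosolic HSP90, had a mean of 800 ± 15.7 CPM in control libraries and rose to 959 ± 47.4 in cKO (log2 0.26, SE 0.045, adjusted p = 0.033 by edgeR). Its groups did not overlap. The co-chaperones Ppp5c (0.12, SE 0.043) and Stip1 (0.13, SE 0.052) did not pass, and the median of the list was 0.0218. Hsp90aa1 was called in 7 of 17 alternatives. Among those that lost it were F169 alone (adjusted p = 0.164 by edgeR), a term for Y-linked expression, the fit without the Xist-expressing libraries, and the fits without any 1 library other than cKO replicate 1.

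The receptors for thyroid hormone, vitamin D and retinoids held 0 called genes of 9 by edgeR or DESeq2. At an unadjusted p under 0.05, 2 were lower and 0 higher, and 8 of the 9 log2 fold changes were negative, with a median of -0.108. Thra, the main cardiac thyroid hormone receptor, lay at 139, 129 and 145 CPM in control and at 126, 127, 126 and 130 CPM in cKO replicates 1 to 4. Control replicate 2 fell below cKO replicate 4, so the groups overlapped (log2 -0.11, SE 0.042, adjusted p = 0.199 by edgeR), and the value was -0.07 without control replicate 3. Thra and the clock receptor gene Nr1d1 overlap at their 3′ ends on opposite strands (mm10 chromosome 11, 98741785 to 98769007 and 98767932 to 98775378). Both counts are uncertain, since no source says on which strand reads were counted. None of the deposited values of either gene was a whole number. The same held for Ppargc1a, Ncoa2 and Esrrb, which overlap no other listed gene, while all values of Esrra, which overlaps Trmt112, were whole. Values that are not whole therefore do not mark an overlap.

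Rarg, a retinoic acid receptor, lay at 12.6, 17.0 and 13.5 CPM in control and at 14.1, 11.5, 11.5 and 10.6 CPM in cKO replicates 1 to 4. The groups overlapped through cKO replicate 1, with a log2 fold change of -0.28 (SE 0.12, adjusted p = 0.276 by edgeR). The value was -0.13 without control replicate 2 and -0.17 without the Xist-expressing libraries. The other retinoic acid receptors Rara (-0.09, SE 0.081) and Rarb (-0.11, SE 0.063) and the RXR partners Rxra (-0.11, SE 0.053), Rxrb (-0.08, SE 0.045) and Rxrg (-0.04, SE 0.21) overlapped between groups as well. RXR proteins are the obligate partners with which retinoic acid, thyroid hormone, vitamin D, PPAR and LXR receptors bind DNA. Thrb had a log2 fold change of -0.29 (SE 0.16) and Vdr, the vitamin D receptor, of 0.05 (SE 0.18), both from levels under 3 CPM in every library.

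Genes that make, carry or answer to retinoic acid held 0 called of 14 by edgeR or DESeq2. DESeq2 gave Rbp4, Aldh1a3, Cyp26a1, Crabp2 and Lrat no adjusted p, so it could not call them. At an unadjusted p under 0.05, 2 of the 14 were higher and 0 lower, and the median of the list was -0.0248. The smallest p belonged to Rbp4, the plasma retinol carrier. Its mean was 0.282 ± 0.0253 CPM in control libraries against 0.580 ± 0.105 in cKO (log2 1.02, SE 0.26, adjusted p = 0.0921 by edgeR). Rbp4 was at or below 0.658 CPM in every library, so this value rests on few counts. Fabp5, which carries retinoic acid to nuclear receptors, had 0.13 (SE 0.069). Aldh1a2, the retinaldehyde dehydrogenase of the epicardium, had -0.08 (SE 0.098).

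Of 12 genes of thyroid hormone handling and response, 1 was lower and 0 were higher, with a median of -0.154. The list was not split by the direction in which the hormone moves each gene. Its median and its calls therefore give no direction of thyroid signalling. The called gene was Pln, phospholamban, the brake on the calcium pump, whose mean fell to 1409 ± 44.8 CPM from 1682 ± 58.0 in control (log2 -0.26, SE 0.040, adjusted p = 0.0238 by edgeR). Pln was called in 8 of 17 alternatives and not, among others, within F169 (adjusted p = 0.12 by edgeR), with a term for Y-linked expression, without the Xist-expressing libraries, without any 1 control, or without cKO replicate 2 or 3. Pln overlaps Cep85l (mean 8.05 CPM) on the opposite strand. Dio2, the deiodinase that makes active thyroid hormone inside cells, had a mean of 15.8 ± 3.11 CPM in control libraries against 9.49 ± 1.5 in cKO. Each cKO library was below each control (log2 -0.73, SE 0.15, adjusted p = 0.0534 by edgeR and 0.000266 by DESeq2). Klf9, which thyroid hormone also induces, was described above. Myh6 (0.19, SE 0.082), a classical target in the adult heart, did not pass.

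The receptors of lipid and energy metabolism held 0 called genes of 8 by edgeR or DESeq2, with 3 lower and 0 higher at an unadjusted p under 0.05 and a median of -0.0895. Ppara, which drives fatty acid oxidation genes, lay at 18.6, 13.6 and 17.2 CPM in control and at 12.0, 13.3, 11.9 and 14.5 CPM in cKO replicates 1 to 4. Control replicate 2 lay within the cKO range, with a log2 fold change of -0.35 (SE 0.11, adjusted p = 0.153 by edgeR). Esrrb, an oestrogen-related receptor with no known hormone, lay at 21.5, 18.1 and 21.1 CPM in control and at 15.9, 18.1, 14.7 and 18.2 CPM in cKO replicates 1 to 4. Here too control replicate 2 overlapped the cKO libraries (log2 -0.27, SE 0.091, adjusted p = 0.172 by edgeR). Nr1h2, the broadly expressed oxysterol receptor LXR beta, lay at 40.8, 39.0 and 38.7 CPM in control and at 38.0, 34.9, 35 and 36.6 CPM in cKO replicates 1 to 4. Its groups did not overlap, by a narrow margin (log2 -0.13, SE 0.044, adjusted p = 0.177 by edgeR).

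Their relatives did not pass either. Ppard had 0.07 (SE 0.068) and Pparg -0.13 (SE 0.16), and the oestrogen-related receptors Esrra and Esrrg, which drive mitochondrial genes, had 0.04 (SE 0.037) and -0.05 (SE 0.057). Nr1h3, the LXR alpha of macrophages and liver, had 0.29 (SE 0.17) from 1.36 ± 0.240 and 1.65 ± 0.116 CPM, and 0.16 without control replicate 2. Macrophage markers moved in the same direction: 7 of 8 had a higher mean in cKO and Mrc1 a lower one, their sum was 96.2 to 101 CPM in control and 105 to 118 CPM in cKO, and none was at 0. Of the 8, 1 was called higher by edgeR and 0 lower. That gene was C1qb (log2 0.45, SE 0.082, adjusted p = 0.0425 by edgeR), called in 7 of 17 alternatives. It was not called within F169 (adjusted p = 0.0887 by edgeR) or without the Xist-expressing libraries. DESeq2 called C1qb and C1qc higher. The part of macrophages in the Nr1h3 value was not tested.

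Of 23 tested genes known to be driven by PPAR, ERR and Ppargc1a, 1 was lower and 0 were higher, with a median of -0.0362. Pdk2, a pyruvate dehydrogenase kinase that restrains glucose oxidation, had a mean of 92.8 ± 5.57 CPM in control libraries and fell to 70.1 ± 2.18 in cKO (log2 -0.40, SE 0.046, adjusted p = 0.00653 by edgeR). Pdk2 was called in 13 of 17 alternatives, each left-out library among them, and not, among others, within F169 (adjusted p = 0.0638 by edgeR), with a term for Y-linked expression or without the Xist-expressing libraries. Cpt1b, the muscle carnitine palmitoyltransferase (-0.18, SE 0.042, adjusted p = 0.0814 by edgeR), and the fatty acid transporter Cd36 (-0.14, SE 0.040) did not pass, though DESeq2 called both lower. DESeq2 also called 1 gene of this list higher, Cycs, which encodes cytochrome c (log2 0.19, SE 0.057, adjusted p = 0.0282 by DESeq2 and 0.132 by edgeR). Cpt1b overlaps Gm44502 (mean 21.4 CPM) on the same strand. Of 11 LXR targets, 0 were called by edgeR and 1 by DESeq2, with 1 at an unadjusted p under 0.05 and a median of -0.0135. That gene was Apoe, the apolipoprotein also made by macrophages (203 ± 10.8 and 240 ± 12.8 CPM, log2 0.24, SE 0.052, adjusted p = 0.0672 by edgeR). The other 10 genes of this list lay between -0.0969 (Smpdl3a) and 0.138 (Mylip, a ubiquitin ligase for the LDL receptor).

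**Figure D3:**
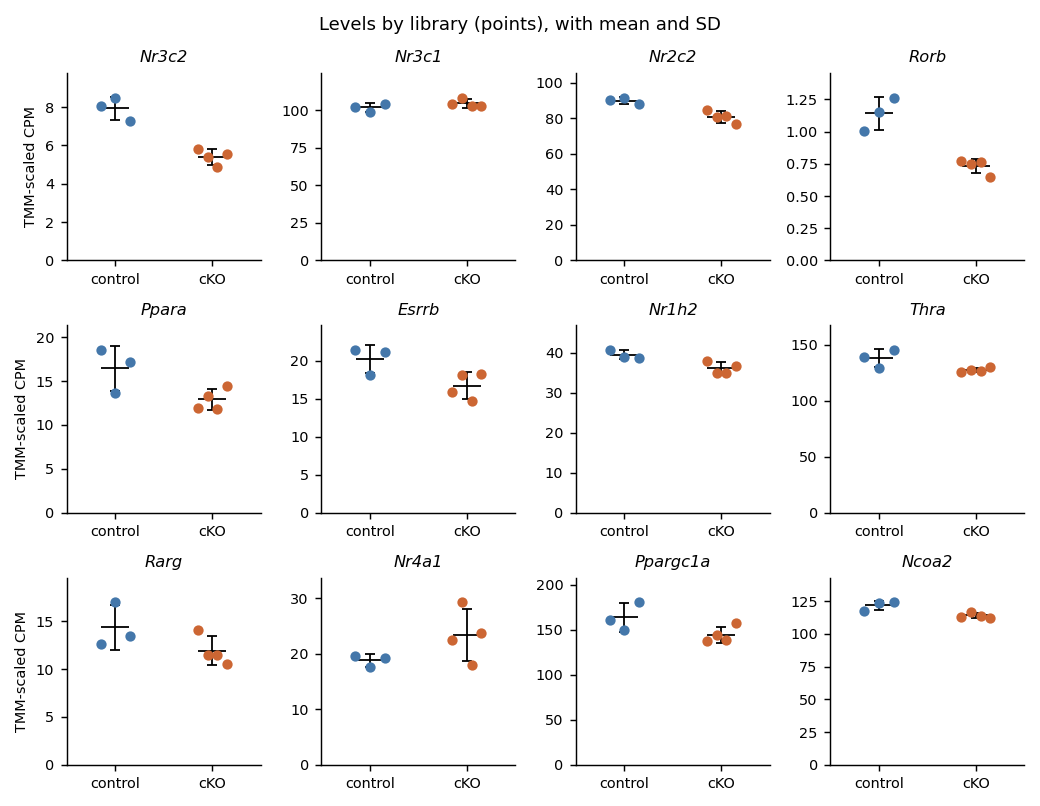
TMM-scaled CPM in each library (points) with mean and SD, from 0, for the 11 genes with an unadjusted p under 0.05 and for Nr3c1. Nr3c2, Nr2c2, Rorb, Nr1h2 and Ncoa2 do not overlap between groups, and the other panels do.

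The clock receptors held 0 called genes of 4 by edgeR or DESeq2, with 1 lower and 0 higher at an unadjusted p under 0.05. Rorb, a retinoid-related orphan receptor best known from the retina and cortex, lay at 1.01, 1.16 and 1.26 CPM in control and at 0.773, 0.749, 0.762 and 0.651 CPM in cKO replicates 1 to 4. The groups did not overlap. The log2 fold change, -0.64 (SE 0.18), was the lowest of the 41, but it rests on 22 to 46 counts per library and did not pass (adjusted p = 0.109 by edgeR, 0.257 by DESeq2). The repressors Nr1d1 and Nr1d2, known as REV-ERB alpha and beta, had -0.09 (SE 0.080) and -0.08 (SE 0.048). Their opponent Rora had -0.15 (SE 0.20) with a wide spread, from 15.4 to 24.9 CPM in control and 12.3 to 20.7 CPM in cKO libraries. It turned to 0.12 without control replicate 3.

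Among 12 clock genes that these receptors control or that mark clock output, 1 was lower and 0 were higher, with a median of 0.042. Per3, a period gene of the clock, had a mean of 19.6 ± 1.21 CPM in control libraries and fell to 14.6 ± 1.16 in cKO (log2 -0.42, SE 0.073, adjusted p = 0.0339 by edgeR), with each cKO library below each control. It was called in 7 of 17 alternatives: of the left-out libraries with cKO replicate 1 out alone, and not, among others, within F169 (adjusted p = 0.17 by edgeR), with a term for Y-linked expression or without the Xist-expressing libraries. The PAR bZIP factors Dbp (-0.52, SE 0.14) and Hlf (-0.34, SE 0.13), which carry clock output, did not pass by edgeR, and DESeq2 called Dbp lower.

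The NR4A receptors, which have no known hormone and are transcribed within minutes of a stimulus, held 0 called genes of 3 by edgeR or DESeq2. Nr4a1 lay at 19.6, 17.5 and 19.2 CPM in control and at 22.5, 29.3, 17.9 and 23.7 CPM in cKO replicates 1 to 4. The cKO libraries 1, 2 and 4 were above all controls, and cKO replicate 3 lay within the control range (log2 0.32, SE 0.14, adjusted p = 0.258 by edgeR). Without cKO replicate 2 the value was 0.19. Nr4a3 had 0.40 (SE 0.19) from under 3 CPM in every library, with replicates 2 and 4 the highest cKO libraries as for Nr4a1. Nr4a2 had 0.02 (SE 0.10), and this value turned negative in 6 of 17 alternatives.

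Of 12 other immediate early genes tested, 2 were higher and 0 lower, 9 were higher at an unadjusted p under 0.05, all 12 log2 fold changes were positive, and the median was 0.495. Fos, an AP-1 subunit, had a mean of 3.55 ± 0.414 CPM in control libraries and rose to 8.29 ± 1.2 in cKO (log2 1.23, SE 0.13, adjusted p = 0.00534 by edgeR). Zfp36, which destabilises AU-rich mRNAs, had a mean of 18.8 ± 2.62 CPM in control libraries and rose to 26.7 ± 2.22 in cKO (log2 0.50, SE 0.098, adjusted p = 0.0491 by edgeR). Fos was called in 15 of 17 alternatives, F169 alone (adjusted p = 0.0638 by edgeR) among those that lost it, and Zfp36 in 5, with 0 calls when any 1 library was left out. The AP-1 subunit Junb (0.43, SE 0.12, adjusted p = 0.105 by edgeR) did not pass by edgeR, while DESeq2 called it and Egr3 (0.99, SE 0.30) higher.

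Of the 7 other orphan receptors 0 were called by edgeR, with 1 lower at an unadjusted p under 0.05, and DESeq2 called that gene, Nr2c2. Nr2c2, the testicular receptor TR4 that competes for direct repeats of AGGTCA, lay at 90.4, 91.5 and 87.8 CPM in control and at 84.8, 80.7, 81.3 and 76.4 CPM in cKO replicates 1 to 4. The groups did not overlap, and the difference was small (log2 -0.15, SE 0.040, adjusted p = 0.0979 by edgeR and 0.0435 by DESeq2). Nr2c2 overlaps Mrps25 (mean 57.2 CPM) on the opposite strand, so its counts are uncertain. Its close relative Nr2c1 had -0.04 (SE 0.059).

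The COUP-TF genes Nr2f1 and Nr2f2, known for atrial and venous identity, had -0.17 (SE 0.22) and 0.00 (SE 0.060). Nr2f1 varied widely in cKO, from 5.75 to 11.4 CPM, and turned to 0.11 within F169. Nr2f2 turned negative with upper-quartile scaling. The other 5 atrial markers summed to 2626 to 3000 CPM in control and 3132 to 3992 CPM in cKO libraries, with 2 of 5 higher on average and none at 0. Without Nppa, the atrial peptide gene that stress also induces, the sums of the other 4 overlapped, at 1497 to 1708 CPM in control and 1606 to 1804 CPM in cKO, and their part in the Nr2f1 and Nr2f2 values was not tested. The third COUP family gene Nr2f6 had 0.01 (SE 0.043). Nr5a2 (-0.28, SE 0.19) and Nr6a1, the germ cell nuclear factor (0.17, SE 0.11), were below 6 CPM in every library.

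The 6 coregulators held 0 called genes by edgeR or DESeq2, with 2 lower and 0 higher at an unadjusted p under 0.05 and a median of -0.0888. Ncoa2, a p160 histone acetyltransferase recruiter, lay at 118, 123 and 124 CPM in control and at 113, 117, 114 and 112 CPM in cKO replicates 1 to 4. The groups did not overlap, with a ratio of 0.937 (log2 -0.09, SE 0.032, adjusted p = 0.175 by edgeR). Ppargc1a, the coactivator that couples PPAR and ERR receptors to mitochondrial biogenesis, lay at 161, 149 and 181 CPM in control and at 137, 144, 139 and 157 CPM in cKO replicates 1 to 4. Control replicate 2 lay below cKO replicate 4, with a log2 fold change of -0.18 (SE 0.067, adjusted p = 0.201 by edgeR, and 0.0711 with the F code as a term). Without control replicate 3 the value was -0.11 (adjusted p = 0.454 by edgeR). Ppargc1b had -0.17 (SE 0.10), the corepressor Ncor1 -0.02 (SE 0.034), and the coactivators Ncoa1 and Ncoa3 -0.08 (SE 0.043) and 0.03 (SE 0.041).

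Of 20 further coactivator and corepressor genes, 0 were called by edgeR and 1 by DESeq2, with 2 higher and 3 lower at an unadjusted p under 0.05 and a median of -0.0189. The smallest p belonged to Sin3a, the scaffold of a histone deacetylase complex, with a mean of 106 ± 1.48 CPM in control libraries against 96.7 ± 1.57 in cKO (log2 -0.14, SE 0.030, adjusted p = 0.069 by edgeR and 0.0184 by DESeq2). Ncoa6 had -0.12 (SE 0.034) and the ligand-dependent corepressor Lcor 0.19 (SE 0.063).

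Levels of different genes were compared per length, as TMM-scaled CPM per kb of merged GENCODE M21 exons. In control ventricle Thra had the highest mean of the 41 at 29.9 ± 1.79 CPM per kb, followed by Ppargc1a at 24.8 ± 2.4. The control libraries of these genes did not overlap, by a narrow margin (lowest Thra 27.9, highest Ppargc1a 27.4). The Thra counts are uncertain through the overlap with Nr1d1, so this order is too. Nr2f6 (20.5 ± 0.941) and Ncor1 (20.2 ± 0.390) overlapped each other, as did Rxra (18.3 ± 1.17) and Esrrg (17.4 ± 0.407). Nr3c1 stood at 13.2 ± 0.370 CPM per kb and Nr3c2 at 1.23 ± 0.0947 in control and 0.834 ± 0.0628 in cKO. At the low end, Esr2 (0.171 ± 0.0362), Rorb (0.103 ± 0.0116) and Esr1 (0.0964 ± 0.0210) followed Nr5a2 (0.219 ± 0.0373), and Rorb and Esr1 overlapped.

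Within families the levels were unequal. Thra exceeded Thrb (0.309 ± 0.0585 CPM per kb), Rxra and Rxrb (10.8 ± 0.175) exceeded Rxrg (0.544 ± 0.127), and Ppara (4.29 ± 0.664) and Ppard (3.59 ± 0.206) exceeded Pparg (0.586 ± 0.0541), with no overlap between the libraries of those genes. Ppara and Ppard overlapped. Among retinoic acid receptors the order was Rara (13.1 ± 1.14), Rarb (6.04 ± 0.572) and Rarg (3.37 ± 0.547).

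**Figure D4:**
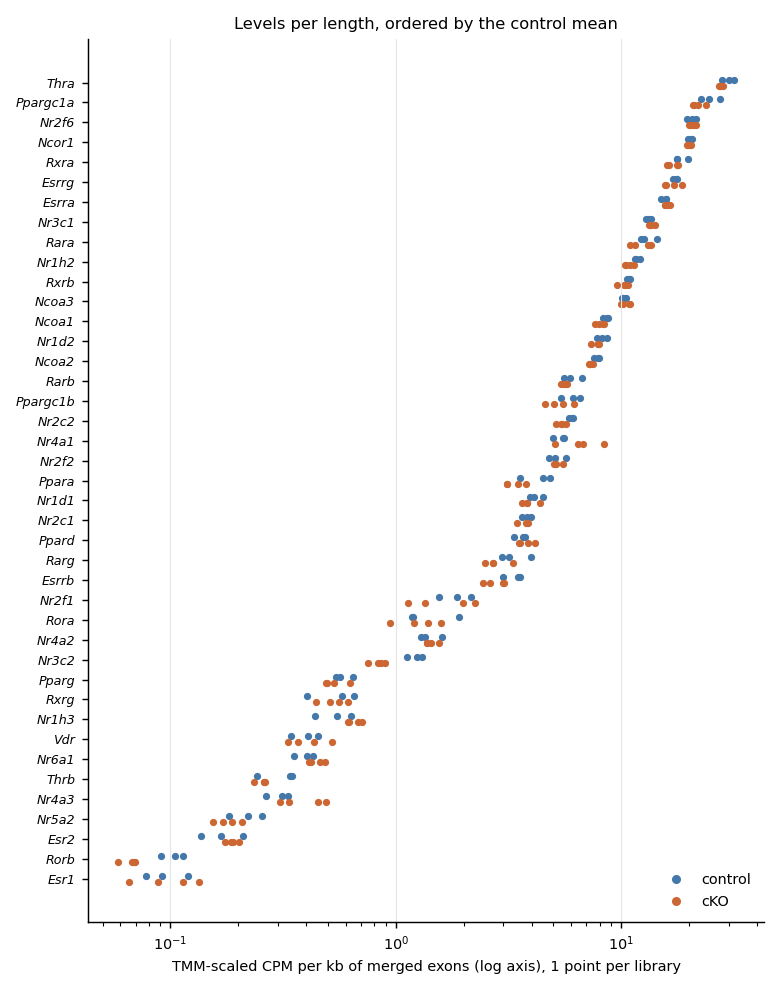
TMM-scaled CPM per kb of merged exons on a log axis, 1 point per library, for 41 genes ordered by the control mean. Thra is at the top at 29.9 CPM per kb and Esr1 at the bottom at 0.0964. Control and cKO points do not overlap for Nr3c2, Nr2c2, Rorb, Nr1h2 and Ncoa2.

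To ask whether close relatives moved differently, the log2 ratio of 8 pairs was compared with exact two-sided permutation tests over 35 arrangements. The ratio of Nr3c2 to Nr3c1 had the smallest p, given above, and 0 of 8 pairs passed after adjustment, with 1 at an unadjusted p under 0.05. With adjustment over 8 pairs, a pair that alone reached the smallest p could not pass. The other differences, cKO minus control, were -0.14 for Thrb to Thra, 0.10 for Rxrg to Rxra, -0.01 for Nr1d1 to Nr1d2, -0.10 for Esrrg to Esrra, -0.20 for Nr2f1 to Nr2f2, 0.00 for Ppargc1b to Ppargc1a and 0.12 for Nr2c1 to Nr2c2. Their permutation p-values ran from 0.171 to 0.971 (exact test), and their libraries overlapped between groups.

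**Figure D5:**
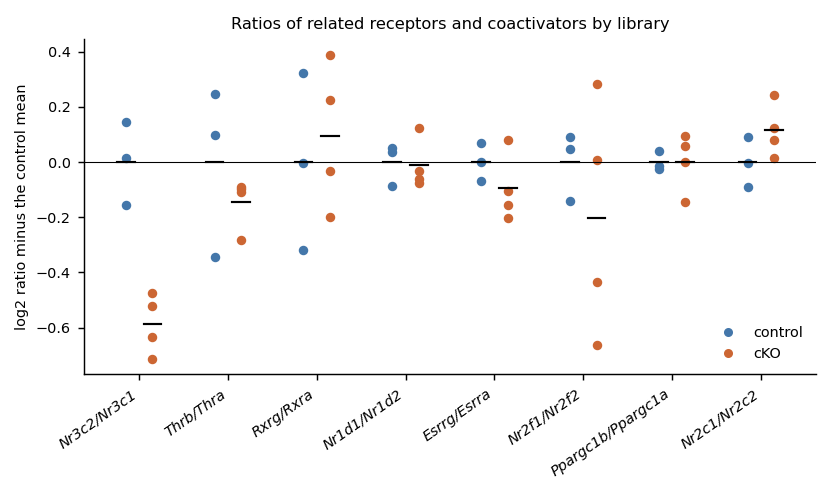
Log2 ratio of 8 pairs of related genes in each library, minus the control mean of that pair, with group means as bars. The cKO points of Nr3c2/Nr3c1 lie below all controls, at a mean difference of -0.59, and those of the other pairs overlap the controls.

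The F code moved with several of these genes. In 11 of the 41 (26.8%) the F191 library was the highest of its group in both control and cKO, against 12.1% of all genes tested, and it was the lowest in both in 2 (4.88%), against 11.8%. The 11 were Nr1d2, Nr2c1, Nr2f6, Ppard, Rxra, Rxrb, Rora, Thra, Ppargc1a, Ppargc1b and Ncoa3, and the 2 were Nr2c2 and Esrrg. This count was chosen after the values were seen, and the share that the F code has in these values was not tested. With the F code as a term in the edgeR fit, 1 of the 41 was called, Nr3c2 (log2 -0.56, adjusted p = 0.0331).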

How the data were processed

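Per the labels' protocols, RNA was made into libraries with a directional kit. The submitters' processing notes list STAR 2.4.2a, HTSeq 0.6.1 and mm10 without saying what each did. The deposited values are estimated counts per gene, of which 30.3% were not whole; no source used here gives the step that made them so. They were rounded. A further column equals the sum of the 7 library columns in every gene and was not used, so control replicate 4 was not analysed here.

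The genes described and the lists set beside them were chosen with earlier results of these data known. Genes were filtered with filterByExpr (minimum count 10; 14887 of 15358 kept), scaled by TMM and tested with edgeR 4.0.16 (glmQLFit and glmQLFTest, R 4.3.3), with Benjamini-Hochberg adjustment over all genes and a threshold of 0.05. SE is the log2 fold change divided by the square root of F. Lists are described by counts and medians, with no set test. Ratios used log2 CPM with a prior count of 2. Values in every library are given for genes called, with an unadjusted p under 0.05 or with groups that do not overlap; of each list, called genes and up to 3 with the smallest p. Any further gene was picked with its value in view, and some genes of the lists are not reported here. Alternatives were DESeq2 1.42.0, limma-voom (limma 3.58.1), other size factors, no filter, terms for the replicate number, F code and Y-linked expression, F169 alone, no Xist-expressing libraries, and each library left out. On simulated data for 14780 genes, edgeR called 54% of 50 genes changed 1.25-fold and 82% of 50 changed 1.5-fold. It also called 13 genes that were not changed. The simulated libraries held no difference by sex or F code, and genes at the lowest levels were not among those changed. These shares therefore need not hold for the libraries compared here.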

Additional observations from a re-analysis of the deposited data

Results flagged for a closer look

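Among the 42 genes examined (the 41 and Lemd2), 2 had a cKO library far from the other 3 of its group, by a rule that chance meets in about 1 of 20 groups. Nr1d2, the REV-ERB beta receptor, lay at 39.6 CPM in cKO replicate 1, and the nearest of the others was at 42.4 CPM. Thrb, the beta thyroid hormone receptor, lay at 1.74 CPM in cKO replicate 4, and the nearest of the others was at 1.92 CPM. Groups of 3 controls were not examined in this way.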

How the results depend on the processing

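Of the 41 genes, 32 kept the sign of their log2 fold change under all 17 alternatives, and 9, none of them called, did not. The median of the 41 stayed negative, from -0.106 to -0.0342. Lemd2 was called lower under all 17. The 162 genes called in the whole table became 629 with DESeq2, 20 in the F169 libraries, 20 with a term for Y-linked expression, 17 when Xist-expressing libraries were dropped, and between 28 and 133 when 1 library was left out. The number of the 41 called lower, 1, became 2 with DESeq2, 0 in each of the other 3 and 0 to 1 with 1 library left out. The cause was not tested. None was called higher under any alternative. Same-numbered libraries did not deviate together (r from -0.0791 to 0.0386 over 3 numbers), and the replicate block gave 13 genes called and 0 of the 41. It also gave 0 of the 7 genes called in the lists set beside them (edgeR adjusted p from 0.051 to 0.216). Signs turned within F169 for Nr2f1 (0.1086), Nr4a2 (-0.02138), Rxrg (0.02945) and Vdr (-0.07576), and for the ratios Nr1d1/Nr1d2 (0.02881) and Ppargc1b/Ppargc1a (-0.03639). With a term for Y-linked expression they turned for Nr4a2 (-0.04539) and Vdr (-0.004193), and without the Xist-expressing libraries for Nr4a2 (-0.04522), Vdr (-0.004064) and Nr1d1/Nr1d2 (0.04676). They turned with the replicate block for Nr2f6 (-0.001021) and Vdr (-0.08783), with upper-quartile factors for Nr2f2 (-0.004519) and with limma-voom for Esr1 (-0.003003). With 1 library left out, values that changed sign ranged from -0.04757 to 0.0745 for Nr2f2, -0.01854 to 0.04493 for Nr2f6, -0.03996 to 0.1173 for Nr4a2, -0.1286 to 0.2169 for Esr1, -0.004239 to 0.303 for Esr2, -0.2158 to 0.1155 for Rxrg, -0.2701 to 0.1178 for Rora and -0.08569 to 0.1454 for Vdr, and from -0.06402 to 0.2576 for Rxrg/Rxra, -0.05584 to 0.01538 for Nr1d1/Nr1d2 and -0.02903 to 0.0512 for Ppargc1b/Ppargc1a. Low counts limit Esr1, Esr2, Rxrg, Vdr and Rorb.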
